A study of Mus musculus with 6 samples.

Results

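The respiratory chain and ATP synthase genes are the nuclear genes that encode the subunits, and some assembly factors, of the 5 enzyme complexes of oxidative phosphorylation. They were taken from 6 Agilent 1-colour arrays as the non-control probes for a RefSeq transcript of a gene whose symbol begins with Nduf, Sdha, Sdhb, Sdhc, Sdhd, Uqcr, Cox4 to Cox8 or Atp5. This gave 128 probes of 97 genes, of 55681 probes and 37163 gene names in all. Complex I had 44 genes, complex II 8, complex III 8, complex IV 20 and complex V 17. Ndufa4, which carries a complex I name but is a subunit of complex IV, and its paralog Ndufa4l2 were counted in complex IV.

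Complexes I and II feed electrons from NADH and succinate to ubiquinone, complex III passes them to cytochrome c, and complex IV passes them to oxygen. Complexes I, III and IV pump protons across the inner mitochondrial membrane, and complex V, the ATP synthase, uses their return to make ATP. Complex II is the enzyme that also belongs to the citric acid cycle, and the only complex of the 5 with no subunit encoded in mitochondrial DNA. Blood-forming cells, stromal cells and erythroid precursors of the marrow all hold these enzymes, and several complex IV subunits have a second gene used mainly in muscle, lung or testis.

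The samples were sorted marrow cells of C57BL/6 mice, with no genetic change or treatment given in the labels. The young group was 3 samples from mice aged 3 months and the old group 3 samples from mice aged 24 months. The labels call the cells mesenchymal stem cells of the marrow and do not give the sort markers or say whether animals were pooled. Separate animals are not stated for the samples of a group, and the spread that the p-values below measure is that between samples, which may be technical.

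Several facts of the whole series bear on these genes. The old arrays were mostly dimmer, with a 75th percentile of processed intensity of 205.9 to 285.3, against 277.4 to 348.6 for young arrays, and 51% to 53.4% of their probes were well above background, against 55.3% to 60%. Young arrays lay in 1 slide row and old arrays in the second, which means that effects of row and of age cannot be told apart. On the first principal component, with 57.2% of the variance, young replicate 3 (-59.7) stood apart from young replicates 1 and 2 (-26.2 and -30.1). Of 18 mesenchymal stroma markers 8 were well above background on all 6 arrays and 6 on none, Pdgfra and Pdgfrb among the latter. For the other cell types that the sort could hold, 19 of 20 leukocyte, 19 of 19 neutrophil and 17 of 18 erythroid genes were well above background on all 6 arrays, as were 10 of 15 B cell, 8 of 13 monocyte and macrophage and 12 of 12 proliferation genes. The leukocyte list was lower in old samples in 11 of 20 tested genes, the neutrophil list in 8 of 19, the B cell list in 8 of 14, the list for monocytes and macrophages in 6 of 11, and the stroma list in 4 of 12 (with 1 higher). The last 2 counts each include 1 gene, Mrc1 and Col1a1, that was tested only because all 3 young arrays were well above background, as no old array was. No tested gene of the erythroid list (18, of which 1 had an unadjusted limma p under 0.05) or of the proliferation list (12, of which 1 did) passed. In a mixed population, fewer cells of a type and less RNA per cell cannot be told apart.

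Nearly all of the machinery was measurable. Of the 97 genes, 93 were well above background on all 6 arrays, and none had a saturated spot. Ndufa4l2 reached 3 arrays. Cox7b2, Cox8b and Cox8c, isoforms used mainly in testis or striated muscle, were well above background on no array and were not tested. Levels below are log2 intensities minus the 75th percentile of their array. Replicates lay close together: the median SD within an age group was 0.07 log2 units for the members, 0.16 for all genes and 0.09 for all genes with a mean signal above 4. The 95% interval of a member's log2 fold change had a median half-width of 0.21, and for 78 of the 94 the whole interval lay between -0.5 and 0.5.

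With this precision the ages differed little in the respiratory chain. Uqcrc1 of complex III rose and Cox6a2 of complex IV fell in old samples, and no other tested member passed (limma with Benjamini-Hochberg adjustment over all genes at 0.05). The share of all tested genes called was 8.01%, with 3.97% higher and 4.04% lower, so the members' 1 higher and 1 lower call (2.13% of 94) lay below it. Among all tested genes with a mean signal above 6, where 56 members lie, 2.15% were called higher and 0% lower. Neither called member lies in that range, as Uqcrc1 had a mean signal of 5.10 and Cox6a2 of -0.77. Between 4 and 6 the shares were 2.86% and 0.409%. With an intensity trend in limma's variance prior the members were above the share of all genes. There 18 members (19.1%) were called, against 14.1% of all genes, and 17 of them were higher, against 7.94%. The share among genes with a mean signal above 6 was not computed with this prior. At an unadjusted limma p under 0.05 the members held 26 genes, 25 of them higher, which is 27.7% against 27.8% of all genes.

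The direction of the small differences was nearly uniform, and so was that of other bright genes. The log2 fold change, old minus young, was above 0 in 87 of 94 members and in 60.2% of all tested genes, with medians of 0.15 and 0.07. Old and young values did not overlap in 57 members that were higher and 2 that were lower in old samples, against 22.9% and 13.1% of all genes (36.0% in either direction). Among the 1532 tested genes with a mean signal above 6, however, 88.8% had a positive fold change and 58.9% were higher without overlap, with a median of 0.18. The 56 members in that range were all positive, 41 were higher without overlap, and their median was 0.18. With scalings that act along the signal range the shift was smaller: cyclic loess left 58 of 94 members positive and quantile normalization 53, with members' medians of 0.03 and 0.02. In the authors' deposited table, whose scaling is not known, 56 were positive and the median was 0.03.

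**Figure D1:**
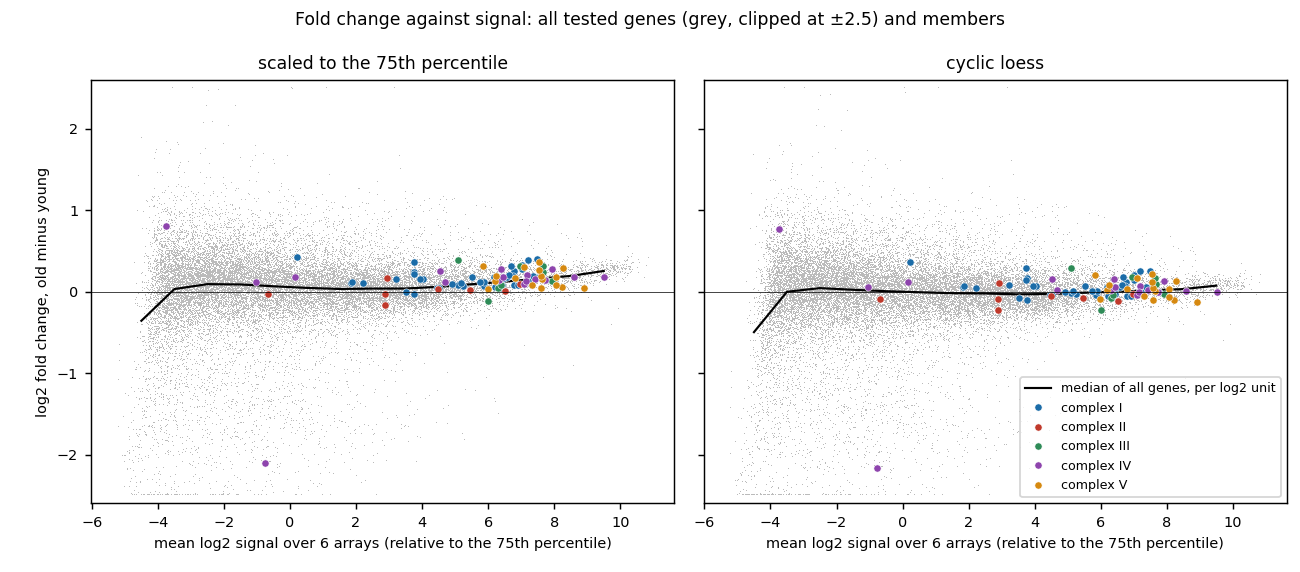
Log2 fold change (old minus young, vertical axis) against mean log2 signal over 6 arrays (horizontal axis) for all 23285 tested genes (grey, clipped at ±2.5) and the members (coloured by complex), with the 75th percentile scaling on the left and cyclic loess on the right. The black line, the median of all genes per log2 unit of signal, rises at the bright end on the left, where most members lie and where the median of genes above 6 was 0.18, and stays near 0 there on the right; Cox6a2 lies near -2.1 in both panels.

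Complex I, the largest of the 5, had no called member among its 44 genes. Its catalytic core subunits carry the flavin and iron-sulfur clusters and the site that reduces ubiquinone. Ndufs7, which holds the last cluster before ubiquinone, read 6.66, 6.66 and 6.65 on the young arrays, in replicate order here and below, and 6.93, 6.90 and 6.90 on the old ones. The age groups did not overlap and the difference was 0.25 ± 0.07 (log2 fold change ± SE here and below), but it did not pass over all genes (limma adjusted p = 0.0883).

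For the other core subunits described here the values were closer together. Ndufs3, also of the ubiquinone-reducing part, differed by 0.18 ± 0.08, and Ndufs8, which holds iron-sulfur clusters of the same part, by 0.15 ± 0.09. Ndufv1, which binds NADH and flavin, differed by 0.13 ± 0.08 and Ndufv2, its partner, by 0.18 ± 0.09. Old values lay above all young values in these 4 genes. Ndufs1, the largest iron-sulfur subunit, read 5.83, 5.84 and 5.82 in young and 5.92, 5.90 and 5.87 in old samples, which did not overlap, with a 95% interval of the fold change from -0.11 to 0.25.

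All 29 supernumerary subunits of complex I had positive fold changes, from 0.04 to 0.40, and none passed. Old values lay above young values without overlap in 20 of them, against 22.9% of all tested genes and 58.9% of those with a mean signal above 6. Ndufs6, a zinc-binding subunit needed late in assembly, read 7.42, 7.25 and 7.21 in young and 7.54, 7.77 and 7.76 in old samples (0.40 ± 0.11, limma adjusted p = 0.0743). Ndufa5, of the arm that reaches into the matrix, read 7.07, 7.06 and 6.89 against 7.26, 7.43 and 7.49 (0.39 ± 0.10, limma adjusted p = 0.0727). These were the 2 members of the complex with the smallest p, and neither group overlapped. At the other end, Ndufa8 and Ndufa10 differed by 0.04 each, and their groups overlapped. With cyclic loess 17 of the 29 were positive and with quantile normalization 18, and Ndufs6 and Ndufa5 were 0.26 and 0.25 with cyclic loess.

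The 8 assembly factors of complex I, which act on it but are not part of the finished enzyme, had no called gene among them. Ndufaf5, which hydroxylates an arginine of Ndufs7, read 0.06, -0.22 and 0.15 in young and 0.24, 0.44 and 0.58 in old samples (0.42 ± 0.14, limma adjusted p = 0.116). Ndufaf4 differed by 0.37 ± 0.13, but its other probe by 0.08. Ndufaf7, a methyltransferase, differed by 0.22 ± 0.08 with no overlap, and Ndufaf1 and Ndufaf3 by 0.15 and 0.12, also with no overlap. Ndufaf8 (0.11) and Ndufaf6 (0.11) overlapped, and Ndufaf2 was at -0.01 ± 0.08. Under quantile normalization, cyclic loess, median scaling, normexp and the deposited values, 7 of the 8 stayed positive in each case.

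Complex II had the lowest median of the 5 complexes. By their brightest probes its 4 subunits were nearly level between the ages. Sdha, the flavin subunit that oxidizes succinate, read 5.42, 5.48 and 5.44 in young and 5.52, 5.45 and 5.44 in old samples, a difference of 0.02 ± 0.08 (95% interval -0.16 to 0.21). Sdhb, which carries the iron-sulfur clusters, differed by 0.10 ± 0.08, with old values just above young ones (7.01, 6.99 and 7.07 against 6.88, 6.97 and 6.92). The membrane anchors Sdhc and Sdhd differed by 0.04 (interval -0.15 to 0.22) and 0.01 (interval -0.21 to 0.23), and their groups overlapped. A second probe of Sdhc, nearly as bright, read 4.24, 4.19 and 4.22 in young and 4.4, 4.4 and 4.5 in old samples. It differed by 0.21 without overlap (limma adjusted p = 0.159), while the second probe of Sdhb gave 0.02. By the brightest probes all 4 subunits were positive with the 75th percentile and negative with cyclic loess, with quantile normalization and in the deposited table.

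Its 4 assembly factors were on both sides of 0. Sdhaf2, needed to attach flavin to Sdha, was lower in each old sample (2.88, 2.81 and 2.72 against 2.90, 2.94 and 3.05), but the difference of -0.16 ± 0.09 did not pass (limma adjusted p = 0.296). Sdhaf1, which protects the cluster-bearing Sdhb, differed by 0.17 ± 0.10 with overlap. Sdhaf3 (-0.02) and Sdhaf4 (-0.03), which act on Sdhb and Sdha, overlapped as well. Over its 8 genes complex II had a median of 0.02, against 0.15 for complex I, 0.18 for complexes III and IV and 0.16 for complex V. It was the lowest of the 5 with the 75th percentile, the median, normexp, cyclic loess, quantile normalization and the deposited values alike, at -0.01 to -0.08 in the last 5. Leaving out 1 array moved it between -0.01 (without young replicate 3 or old replicate 1) and 0.06 (without young replicate 2), so its sign is not settled. Complex II had a median signal of 3.71, against 6.04 to 7.54 for the others. Its 4 assembly factors had a median signal of 2.88 and a median log2 fold change of -0.03. Its 4 subunits had a median signal of 5.99 and a median log2 fold change of 0.03. The subunits of the common form in the other complexes had median signals of 6.4 to 7.54 and medians of 0.15 to 0.18. With the 75th percentile, all tested genes with a mean signal of 2 to 4 had a median of 0.04. Those of 4 to 6 had 0.07 and those above 6 had 0.18. The 5 F1 subunits of complex V had medians as low, at -0.09 with quantile normalization and -0.06 with cyclic loess. Those of the 4 complex II subunits were -0.07 in both. The difference between complexes was not tested.

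**Figure D2:**
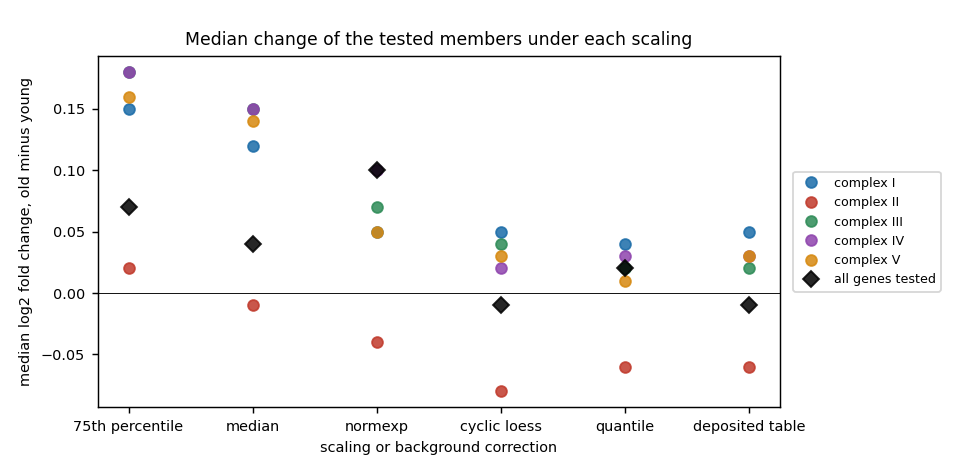
Median log2 fold change (old minus young, vertical axis) of the tested members of each complex (circles) and of all tested genes (diamonds) under 6 ways of scaling or background correction (horizontal axis). Complexes I, III, IV and V sit between 0.15 and 0.18 with the 75th percentile and between 0.01 and 0.05 with cyclic loess, quantile normalization and the deposited table, and complex II lies below them in every column.

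In complex III, Uqcrc1 (NM_025407), a core protein on the matrix side, rose by 1.31-fold. Its young arrays read 4.89, 4.90 and 4.92 and its old arrays 5.34, 5.22 and 5.32, a log2 fold change of 0.39 ± 0.08 (95% interval 0.20 to 0.58, limma adjusted p = 0.0386, higher in 3 of 3 old samples). The groups were far apart for their spread, which was 0.01 in young and 0.06 in old samples (SD, n = 3). The call ended under quantile normalization (0.30, limma adjusted p = 0.0687), cyclic loess (0.29, 0.0779), median scaling (0.36, 0.061) and the deposited values (0.31, 0.0591), and without any 1 of the 6 arrays (0.37 to 0.43, limma adjusted p 0.0817 to 0.111). With normexp it stayed (0.31, limma adjusted p = 0.0474).

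The other 7 genes of complex III did not pass. Uqcr10 and Uqcr11, small membrane subunits, came next: Uqcr10 read 6.78, 6.78 and 6.86 in young and 7.10, 7.13 and 7.12 in old samples (0.31 ± 0.07, limma adjusted p = 0.0581), and Uqcr11 differed by 0.32 ± 0.08 (limma adjusted p = 0.0614). The 3 probes of Uqcr10 gave 0.24, 0.26 and 0.31. Uqcrq, another small subunit, differed by 0.24 ± 0.09 with no overlap, while Uqcrh, the hinge that helps dock cytochrome c, Uqcrb, which lies near the ubiquinone site, and Uqcrc2, the partner of Uqcrc1, overlapped (0.13, 0.08 and 0.04). The partner core proteins thus had different values, 0.39 with an interval of 0.20 to 0.58 for Uqcrc1 and 0.04 with an interval of -0.14 to 0.23 for Uqcrc2, but the difference between them was not tested. Uqcrfs1, the Rieske iron-sulfur subunit that takes electrons from ubiquinol, was the member of the complex with a negative value. It read 5.98, 6.08 and 6.10 in young and 5.93, 6.00 and 5.89 in old samples (-0.12 ± 0.08, limma adjusted p = 0.406), and was negative under each of the 5 other scalings (-0.14 to -0.23).

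Promoter windows show which of these genes carry letters that fit factors known to act on respiratory genes. Of the 97 genes, 80 had a window of 250 bases before to 50 after the gene start in RefSeq (GRCm38.p6), 85 windows in all, and both strands were searched. The letters GCGCATGCG, the core of the site of nuclear respiratory factor 1 (NRF1), were in 11.8% of the members' windows and 1.8% of all 32851 windows of the table. The letters AAGATGGCG, for YY1, were in 9.4% and 1.4%, CCGGAAGT, for GABPA, in 5.9% and 3.9%, and CAAGGTCA, for the oestrogen-related receptor ESRRA, in 4.7% and 1.6%. The 10 genes with the NRF1 letters were Uqcrc1, Uqcr11, Ndufaf5, Ndufaf4, Ndufa11, Ndufa8, Atp5k, Atp5g2, Atp5l and Cox6a1. Their log2 fold changes ran from 0.04 to 0.42 with a median of 0.30, against 0.13 for the 68 tested genes whose windows lack these letters. For the other motifs the medians with and without the letters were 0.15 and 0.15 (YY1), 0.18 and 0.15 (GABPA) and 0.06 and 0.15 (ESRRA). A match is a description of letters and not a shown site, and these differences were not tested.

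The windows of Uqcrc1, the gene that rose, and of Cox6a1, the common counterpart of the gene that fell, are shown as examples. Uqcrc1 lies on the plus strand at chr9:108936398-108936697 and Cox6a1 on the minus strand at chr5:115348909-115349208 (GRCm38.p6). Capitals mark the NRF1 letters, which overlap on the 2 strands because they read nearly the same both ways. They begin 30 bases after the start in Uqcrc1 and 162 bases before it in Cox6a1.
Uqcrc1: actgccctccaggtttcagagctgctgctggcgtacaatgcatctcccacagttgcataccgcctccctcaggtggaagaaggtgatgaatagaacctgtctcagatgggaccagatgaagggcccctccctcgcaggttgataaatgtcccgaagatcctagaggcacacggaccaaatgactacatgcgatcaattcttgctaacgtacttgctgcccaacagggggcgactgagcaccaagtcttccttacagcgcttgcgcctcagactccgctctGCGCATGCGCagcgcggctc
Cox6a1: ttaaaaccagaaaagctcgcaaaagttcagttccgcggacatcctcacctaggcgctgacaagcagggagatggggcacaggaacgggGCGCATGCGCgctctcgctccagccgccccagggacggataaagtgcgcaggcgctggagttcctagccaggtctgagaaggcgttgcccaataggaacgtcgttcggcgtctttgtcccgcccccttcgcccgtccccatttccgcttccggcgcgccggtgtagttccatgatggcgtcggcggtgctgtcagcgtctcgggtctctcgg

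In complex IV, Cox6a2 (NM_009943) was the member with the largest difference, 4.3-fold lower in old samples. It encodes the form of subunit VIa used in heart and skeletal muscle, and in mouse its transcript is also known from plasmacytoid dendritic cells. Its young arrays read -0.24, 0.22 and 0.87 and its old arrays -1.56, -2.05 and -1.86. The groups lay more than 1 log2 unit apart, with the young values spread more widely (SD 0.56, against 0.25 in old samples, n = 3). The log2 fold change was -2.11 ± 0.29 (95% interval -2.82 to -1.39, limma adjusted p = 0.0245, lower in 3 of 3 old samples). It was -1.35 with normexp and between -2.10 and -2.17 with median scaling, cyclic loess, quantile normalization and the deposited table, and it passed in each. Without young replicate 3, the highest, it was -1.81 (limma adjusted p = 0.0427). The call ended when young replicate 2 was left out (limma adjusted p = 0.0756), and likewise for old replicate 2 (0.0715) and old replicate 3 (0.0787), where 63, 1 and 5 of all genes were called, and the fold change stayed between -1.99 and -2.14.

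Markers of 2 cell types known to use Cox6a2 were looked at after its value was seen. Of 9 striated muscle genes, 5 (Actn2, Ckm, Tnnt2, Mb and Myl1) were well above background on no array, 2 were on 2 arrays, and neither of the 2 tested, Myh6 and Myh7, passed (0.23 each). The log2 of their summed signal was -1.11 to -0.88 in young and -0.86 to -0.68 in old samples. Of 13 plasmacytoid dendritic cell genes all were tested, 4 were lower in old samples and none was higher. These were the transcription factors Spib (-2.36 ± 0.29) and Irf8 (-2.37 ± 0.30), Upb1 (-2.75 ± 0.45) and Ly6d (-2.07 ± 0.40), with limma adjusted p of 0.0223 to 0.0359. Siglech, the surface receptor that defines these cells in mouse, did not pass at 0.04 ± 0.12, nor did their master regulator Tcf4 (-0.08 ± 0.11) or Bst2 (0.30 ± 0.19). Klk1 (-1.59 ± 0.42) and Pacsin1 (0.47 ± 0.14) did not pass either. Over the 13 genes, 9 fold changes were negative and 4 positive, with a median of -0.34. At an unadjusted limma p under 0.05 the list held 8 genes, among them Klk1 and, with a positive fold change, Pacsin1. The log2 of the list's summed signal, in which Siglech is the brightest probe, was 8.50 to 8.74 in young and 8.50 to 8.70 in old samples. Spib, Irf8 and Ly6d are also used by B cells, whose list fell in 8 of 14 tested genes, with Spib itself among the 8. The part of these cells in the Cox6a2 difference was not tested.

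The common form of the subunit did not pass. Cox6a1 read 9.47, 9.49 and 9.31 in young and 9.46, 9.66 and 9.71 in old samples, a difference of 0.19 ± 0.11 with overlapping groups (95% interval -0.07 to 0.44, limma adjusted p = 0.304). Its interval did not meet that of Cox6a2, though the difference itself was not tested. Other tissue-restricted isoforms did not pass either. Cox4i2, the lung form of subunit IV, differed by 0.18 ± 0.14, Cox7a1, the muscle form of subunit VIIa, by 0.12 ± 0.19 and Cox6b2, the testis form of subunit VIb, by 0.25 ± 0.14, each with overlap. Ndufa4l2, a paralog of Ndufa4 induced by low oxygen in other cells, read -4.56, -3.86 and -4.01 in young and -4.01, -3.26 and -2.74 in old samples (0.81 ± 0.35, limma adjusted p = 0.197), close to the limit of detection.

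**Figure D3:**
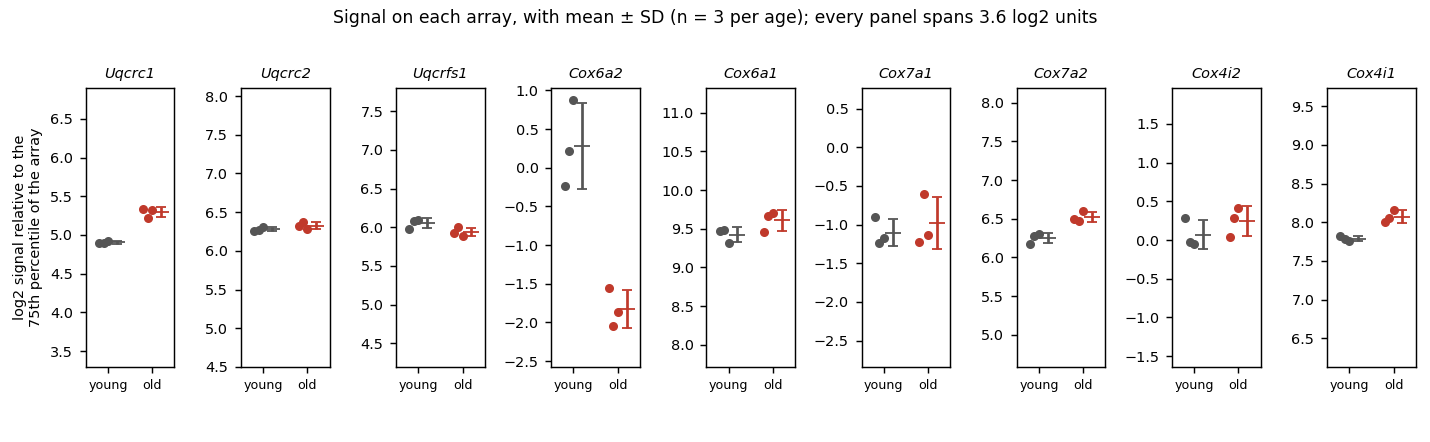
Log2 signal minus that array's 75th percentile (vertical axis, each panel 3.6 log2 units high) for Uqcrc1 and 2 further complex III genes and for 3 tissue-restricted isoforms of complex IV with their common forms; points are the 3 young (grey) and 3 old (red) arrays and bars the mean ± SD. Cox6a2 is the panel where the groups stand apart by more than 1 log2 unit, and Uqcrc1 shows a small gap, from at most 4.92 in young to at least 5.22 in old samples.

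The 11 subunits of the common form of complex IV, Ndufa4 among them, were all positive and none passed (0.09 to 0.28). Old values lay above young ones in 8 of them, against 22.9% of all tested genes and 58.9% of those with a mean signal above 6. Cox4i1, the subunit through which ATP regulates the enzyme, read 7.82, 7.78 and 7.76 in young and 8.0, 8.06 and 8.16 in old samples (0.28 ± 0.08, limma adjusted p = 0.0908). Cox7a2, the common form of subunit VIIa, differed by 0.27 ± 0.08 (limma adjusted p = 0.101). Cox6b1, which faces cytochrome c, Cox8a and Ndufa4 differed by 0.12, 0.18 and 0.14. Cox5a and Cox5b, which lie beside the catalytic core on the matrix side, differed by 0.15 and 0.09. With cyclic loess 10 of the 11 were positive but their median was 0.02, and with quantile normalization 6 were. Cox7a2l, which joins complexes III and IV into supercomplexes and is known to be shortened in C57BL/6 mice, differed by 0.13 ± 0.10, and its 3 probes gave 0.12, 0.13 and 0.17.

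In complex V all 17 genes were positive with the 75th percentile (0.03 to 0.36) and none passed. Within the catalytic head the values were unequal. Atp5a1 and Atp5b, which form its ring of catalytic and regulatory sites, differed by 0.05 ± 0.08 (95% interval -0.15 to 0.24) and 0.04 ± 0.08 (-0.14 to 0.23), and their groups overlapped. Atp5c1, the rotating shaft, differed by 0.08 ± 0.08. The small subunits at the foot of the shaft stood higher: Atp5d read 5.67, 5.69 and 5.67 in young and 6.00, 5.95 and 6.02 in old samples (0.32 ± 0.07, limma adjusted p = 0.0548), and Atp5e read 7.34, 7.37 and 7.38 against 7.58, 7.72 and 7.88 (0.36 ± 0.10, limma adjusted p = 0.081). Both lay apart without overlap. With cyclic loess Atp5a1, Atp5b and Atp5c1 were negative (-0.10, -0.13 and -0.06) and Atp5d and Atp5e positive (0.21 and 0.22). The differences between subunits were not tested.

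The membrane rotor of the ATP synthase is a ring of subunit c, for which 3 genes encode the same mature peptide behind different import sequences. Atp5g2 differed by 0.29 ± 0.11, Atp5g1 by 0.18 ± 0.09 and Atp5g3 by 0.05 ± 0.08, none past the threshold. Old values lay above young ones for Atp5g2 (8.35, 8.49 and 8.45 against 8.19, 8.27 and 7.95) and Atp5g1 (8.13, 8.27 and 8.04 against 7.97, 7.95 and 7.98). For Atp5g3 they overlapped. Among the other membrane and stalk subunits Atp5k, which helps pair 2 synthases, was highest at 0.30 ± 0.08 (limma adjusted p = 0.0856). Its second probe gave 0.36. Of the peripheral stalk, Atp5o differed by 0.20, Atp5j by 0.13, Atp5h by 0.08 and Atp5pb by 0.03. The 5 probes of Atp5l gave 0.07 to 0.21.

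**Figure D4:**
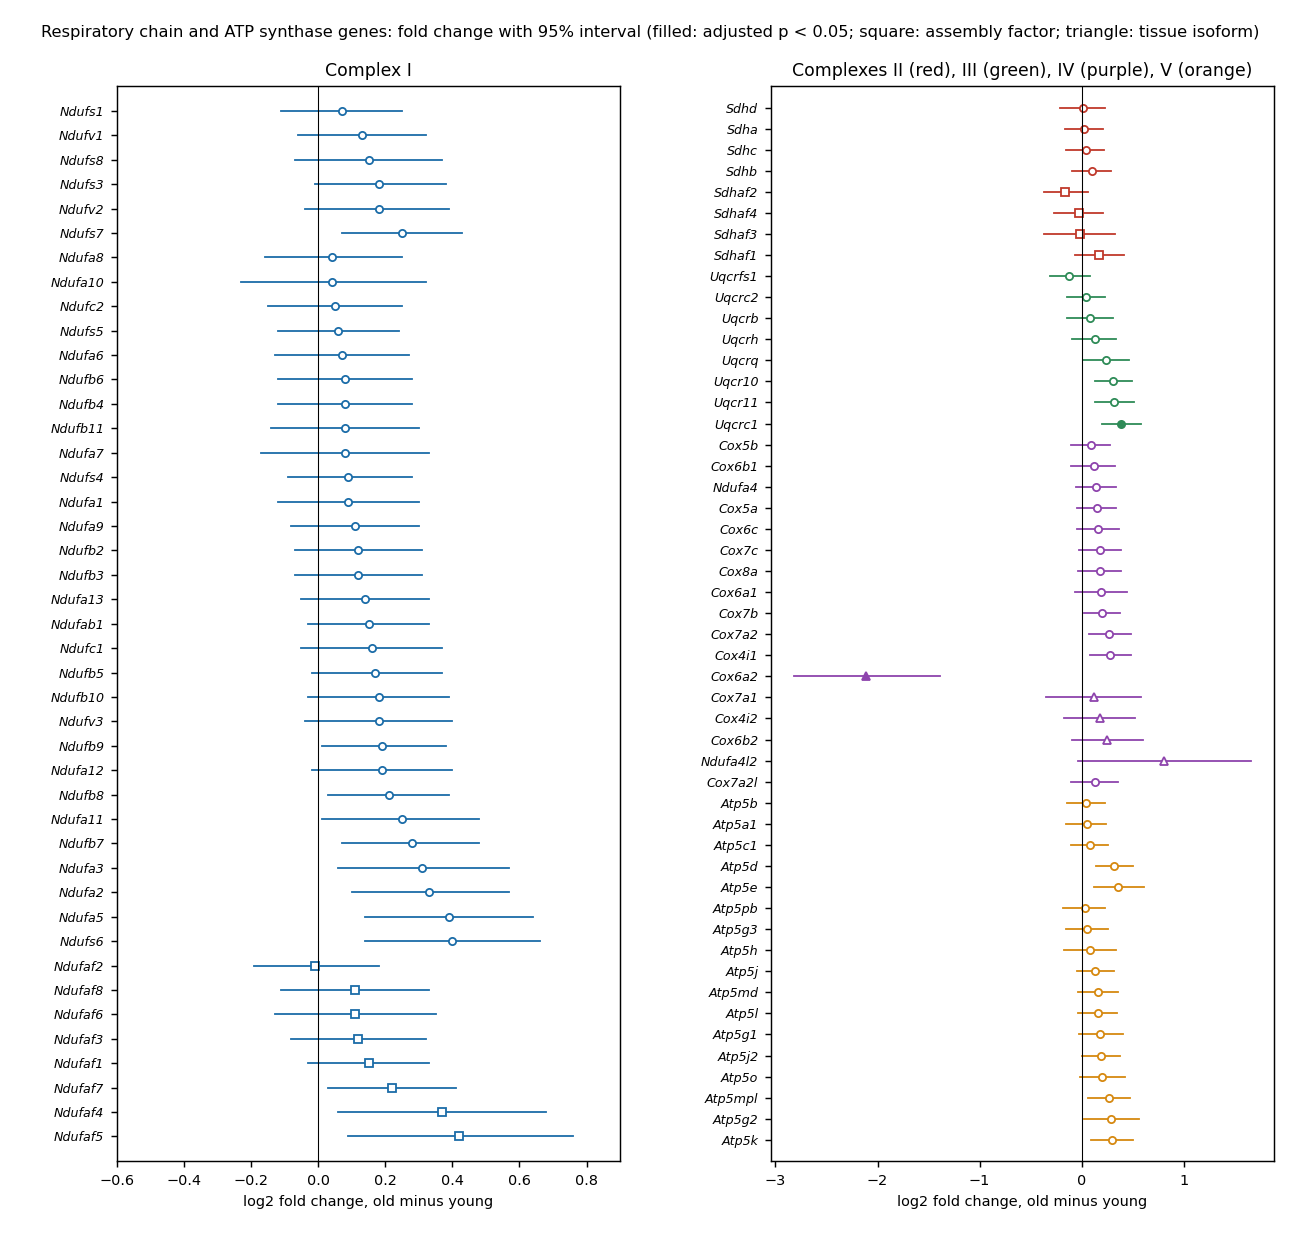
Log2 fold change, old minus young (horizontal axis), with its 95% interval for the tested members (1 is left out), complex I on the left and complexes II to V on the right, whose axis is wider; within a complex the core subunits come first. Filled symbols mark Uqcrc1 and Cox6a2, the members past the threshold. All other points lie between -0.16 and 0.42 except Ndufa4l2 at 0.81.

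By role, the 17 genes counted as core under the symbol rule, from complexes I, II, III and V, had a median of 0.08. They include all subunits of complex II, with its membrane anchors, and all F1 subunits, so not all are catalytic. The 76 core and supernumerary subunits of the common form together, which include these 17, had 0.15. The 12 assembly factors had 0.12. Complex III gave only Uqcrfs1 to this core set. Cyc1, for its cytochrome c1, lies outside the symbol rule and was counted with the electron carriers (0.12 ± 0.09). The core median was negative with cyclic loess and quantile normalization (-0.04 each). Where a gene had several probes they mostly gave like values: of 30 further probes tested, of 23 genes, 29 had the sign of the chosen probe, with a median distance of 0.05 and at most 0.31 log2 units. The exception was Ndufb11, at 0.08 and -0.10. Per array, the median of the members' values around their own means was -0.08, -0.03 and -0.09 for the young arrays and 0.05, 0.08 and 0.09 for the old ones, so that the age groups did not overlap.

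Other genes of the pathway did not pass in any list. No mitochondrially encoded subunit was matched to a probe by accession, so that list has no value. None of 34 tested assembly factors with other names, 9 electron carriers, 16 citric acid cycle enzymes, 15 regulators, 14 outer membrane and import genes and 12 coenzyme Q genes was called (5, 1, 2, 0, 3 and 2 at an unadjusted limma p under 0.05). Their median log2 fold changes were 0.03, 0.06, 0.03, -0.05, 0.14 and 0.16. Among assembly factors the smallest p belonged to Lyrm7, a chaperone of Uqcrfs1, which cleared background on all 3 young arrays but on no old one (at least 2.12-fold brighter in young samples, the old side being a bound from the lowest signal well above background; limma adjusted p = 0.0839), and to Cox19, a copper-route factor of complex IV, at 0.27 ± 0.08. Of the carriers, Etfdh, which passes electrons of fat oxidation to ubiquinone, was at -0.20 ± 0.08 and Etfb at 0.23 ± 0.09. Dlat and Pdhb of pyruvate dehydrogenase were at 0.24 ± 0.08 and -0.21 ± 0.08. Tomm40, the channel of protein import, was at 0.29 ± 0.08, the outer membrane channel Vdac1 at 0.18 ± 0.07, and Pdss1 and Coq4 of coenzyme Q synthesis at 0.36 ± 0.10 and 0.33 ± 0.11. Of the regulators Twnk, the mitochondrial DNA helicase, was at 0.21 ± 0.09 and Tfb2m, a mitochondrial transcription factor, at 0.20 ± 0.11. Ppargc1a, a coactivator of mitochondrial genes, was well above background on no array.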

How the data were processed

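Labelled total RNA of 6 samples was hybridised to 6 Agilent 1-colour arrays. The deposited spot intensity values are, per the file headers, from Agilent Feature Extraction 10.7.3.1 (the submitters' processing notes name 10.5.1.1), corrected for background within each array and not scaled between arrays, on a probe design annotated on mm9. The authors' deposited table of log2 values (medians 4.87 to 4.95; r with the log2 intensity of the same array 0.9986 to 0.9995), with no scaling method named in its labels or header, served as an alternative.

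Control spots and outlier spots were dropped, spots of a probe averaged, and log2 intensity taken relative to the array's 75th percentile over probes. Symbols came from RefSeq (GRCm38.p6) by accession (47.4% of probes). A gene was its brightest probe, tested when well above background on at least 3 arrays (23285 genes), with limma 3.58.1 in R 4.3.3, no covariate, and Benjamini-Hochberg adjustment at 0.05. Python 3.11.15 with pandas 2.3.3 parsed the scanner output, and the fit was tested on simulated data. Array number limits precision. No mean spot signal was in the scanner files, so normexp used the median signal (offset 50).

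The members and lists were chosen with earlier results of these data known; the lists of plasmacytoid dendritic and muscle genes were added after the Cox6a2 value was seen. The text names members past the threshold, the 2 smallest p per complex, core subunits, assembly factors, subunit c genes, Cox7a2l, Ndufa4 and complex IV isoforms whatever their result (1 member is not reported here by name, but is in the counts), and the 2 smallest p of each pathway list; other members named were chosen after their values were seen. Same-numbered samples were not paired: their deviations from the group means correlated at -0.03, 0.017 and -0.009.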

Additional observations from a re-analysis of the deposited data

How the results depend on the processing

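Of 767 values of the 48 members that the naming rule covers, under 16 other settings, 678 kept their sign and their side of the threshold, 17 calls ended (12 of Uqcrc1, 5 of Cox6a2), 10 appeared, 62 uncalled values changed sign and no called value did. Against 1866 genes called, 2910 were with normexp and 3278 with an intensity trend in eBayes. With the replicate block limma called 0 genes (5560 had an unadjusted p under 0.05) and with dim probes kept also 0 (11654), so 0 members; there Uqcrc1 had a limma adjusted p of 0.13 and 0.0617 and Cox6a2 0.0999 and 0.0617. Leaving out 1 array gave 1 to 1155 genes, 0 members higher (0 without each array) and 0 to 1 lower (0 when old replicate 2, old replicate 3 or young replicate 2 was left out). Members higher numbered 0 with quantile, cyclic loess, median scaling and the deposited values (4, 7, 17 and 7 at an unadjusted limma p under 0.05), 4 among genes well above background on all 6 arrays, and 17 with the intensity trend. In either direction, 5.38% of members and 10.4% of genes were called with the filter on all 6 arrays. With the intensity trend it was 19.1% of members and 14.1% of genes. The medians of all members, against 0.15, were 0.02 (quantile), 0.03 (cyclic loess), 0.12 (median scaling), 0.05 (normexp) and 0.03 (deposited). In the order quantile, cyclic loess, normexp and deposited, they were 0.04, 0.05, 0.05 and 0.05 for complex I, -0.06, -0.08, -0.04 and -0.06 for complex II, 0.02, 0.04, 0.07 and 0.02 for complex III, 0.03, 0.02, 0.10 and 0.03 for complex IV and 0.01, 0.03, 0.05 and 0.03 for complex V. Without 1 array complex II lay between -0.01 and 0.06 and complex V between 0.14 and 0.18; complex V was at 0.14 with median scaling. Counting Ndufa4 and Ndufa4l2 in complex I moved no median by more than its spread. Fitting every probe as its own row, chosen after seeing the data, also called 1 member probe in each direction. The cause of these changes was not tested; the block and the omissions leave fewer degrees of freedom.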
